A study of Rattus norvegicus with 12 samples.

Results

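The genes described here encode fibronectin (Fn1), periostin (Postn), the tenascins C, N and R (Tnc, Tnn, Tnr), osteopontin (Spp1), SPARC and its relative SPARC-like 1 (Sparc, Sparcl1), and the spondins 1 and 2 (Spon1, Spon2). They were chosen by name as secreted proteins of the extracellular matrix, and all 10 were found among the 17315 genes counted and passed the filter for testing. RNA was sequenced from cultured rat Müller cells, the radial glia of the retina, in 12 libraries, all from the Sprague-Dawley strain. Primary MC were 4 primary cultures from rats of postnatal day 2-4, replicates 1 and 2 at passage 4 and replicates 3 and 4 at passage 3, grown in 20% fetal bovine serum. SIRMu-1 is a spontaneously immortalized line from rats of the same age, represented by 5 libraries in 20% serum: replicate 1 at passage 6, replicates 2, 3 and 4 at passage 11 and replicate 5 at passage 20. The rMC-1 line came from adult rats and carries the SV40 large T antigen; its 3 libraries were grown in 10% serum, replicate 1 at passage 23 and replicates 2 and 3 at passage 26. All cultures had 25 mM glucose and 2 mM glutamine. Gentamicin (87 mg/L, an antibiotic) and amphotericin B (2.2 mg/L, an antifungal) were present in every primary culture and in SIRMu-1 replicates 3 and 5, and absent from rMC-1 and from SIRMu-1 replicates 1, 2 and 4. Each line is 1 line, and the labels do not say which primary cultures shared an animal, so a p-value reflects only how these libraries spread, and part of that spread may be technical. Donor age, passage, serum and drugs cannot be told apart from the cell kind where they differ with it.

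Matricellular proteins are secreted into the matrix but act mainly by binding cell surface receptors, growth factors and other matrix proteins rather than as structural fibres. Fibronectin is assembled into fibrils through integrins, and periostin, tenascin-C and SPARC associate with that network or with collagen during wound repair and scarring. In the retina, Müller glia and the cells of fibrous membranes on the retinal surface are known sources of such proteins, and tenascin-R and SPARC-like 1 are better known from neural tissue and glia.

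The upstream sequences of 4 members are shown because they cover both directions of difference between the lines: Postn, Sparc and Spp1 were lower in rMC-1 than in SIRMu-1, and Tnn was lower in SIRMu-1 than in rMC-1. Each is the 250 bases before the transcription start in RefSeq on assembly GRCr8, written 5′ to 3′ on the gene's strand, with motif matches in capitals. RefSeq windows were matched for 8 of the 10 genes. The Postn window is chr2:140677811-140678060 (+ strand), that of Sparc chr10:40038817-40039066 (- strand), that of Spp1 chr14:5619805-5620054 (- strand) and that of Tnn chr13:74919790-74920039 (- strand). The RefSeq genes of Postn and Spp1 also begin further upstream than the start used here.
Postn: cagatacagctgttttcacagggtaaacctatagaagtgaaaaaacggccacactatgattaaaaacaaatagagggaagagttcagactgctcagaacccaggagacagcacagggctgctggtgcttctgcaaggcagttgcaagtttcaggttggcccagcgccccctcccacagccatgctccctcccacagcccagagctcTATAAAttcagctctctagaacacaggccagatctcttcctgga
Sparc: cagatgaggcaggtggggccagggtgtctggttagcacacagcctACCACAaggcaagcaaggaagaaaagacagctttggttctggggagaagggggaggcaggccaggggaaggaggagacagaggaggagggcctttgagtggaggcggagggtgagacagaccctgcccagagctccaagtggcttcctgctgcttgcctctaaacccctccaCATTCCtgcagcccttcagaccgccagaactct
Spp1: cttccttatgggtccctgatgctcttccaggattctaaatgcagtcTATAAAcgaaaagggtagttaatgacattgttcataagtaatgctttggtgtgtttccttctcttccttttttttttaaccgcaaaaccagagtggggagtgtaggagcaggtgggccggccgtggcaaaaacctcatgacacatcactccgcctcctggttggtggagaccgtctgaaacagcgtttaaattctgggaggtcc
Tnn: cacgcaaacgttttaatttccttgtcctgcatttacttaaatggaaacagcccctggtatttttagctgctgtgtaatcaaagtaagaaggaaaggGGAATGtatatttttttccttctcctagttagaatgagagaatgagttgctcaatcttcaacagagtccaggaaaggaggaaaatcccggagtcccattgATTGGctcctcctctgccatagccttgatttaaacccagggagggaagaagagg
Both strands of the whole windows, which run on to 50 bases after the start (300 bases), were searched for 5 motifs. They were the TATA box with the letters TATAAA, the AP-1 motif with the letters TGANTCA, the TEAD motif with the letters GGAATG, the RUNX motif with the letters TGTGGT and the CCAAT box, and no matches overlap in these 4 windows. Postn held the TATA box with its first base at -44, Spp1 held it at -204, Sparc held the reverse complements of the RUNX motif at -205 and the TEAD motif at -33, and Tnn held the TEAD motif at -154 and the reverse complement of the CCAAT box at -54. Of all 33469 promoter windows of that length, 14.2% held the TATA box, 7.33% the AP-1 motif, 14.2% the TEAD motif, 17.3% the RUNX motif and 37.5% the CCAAT box. Postn and Spp1 shared the letters TATAAA and Sparc and Tnn the TEAD letters. The window of Tnc, a gene not called between the lines, also held TATAAA, at -208. A match is a description of the letters only.

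Reads in genes came to 22582345 to 38125630 per library, and counting error is therefore small for all but the rarest members. The scaling (TMM) factors were 0.839 to 1.006 in the primary cultures, 0.865 to 1.002 in SIRMu-1 and 1.255 to 1.284 in rMC-1, and levels are given below as CPM, read counts scaled to one library size with these factors, with means ± SD. Of 13 markers of Müller glia, all had counts in primary cultures (summed level 8473 to 9831 CPM), 9 had counts in SIRMu-1 (3696 to 4911 CPM) with Aqp4, Kcnj10, Sox2 and Car2 at 0, and 11 had counts in rMC-1 (1922 to 2079 CPM) with Aqp4 and Car2 at 0. Of those 11, Sox9 had only 4 counts over the rMC-1 libraries (37.2 to 83.8 CPM in primary cultures). Sox2 went the other way, at 11.9 to 18.0 CPM in rMC-1 and 0.224 to 8.15 in primary cultures. Among the 9 with counts in SIRMu-1, Sox9 stood at 21.99 to 107 CPM there, a range that spanned the primary one. Glul stood at 39.7 to 87.7 CPM in SIRMu-1 and 67.7 to 228 in primary cultures, so its ranges overlapped. All 10 fibroblast markers, which hold no gene described here, had counts in every group. Their summed level was 25071 to 117976 CPM in primary cultures, 35700 to 52920 in SIRMu-1 and 3396 to 4901 in rMC-1. Col1a1 made up most of that sum, at 17868 to 92014, 31718 to 43150 and 2583 to 3875 CPM in the same order. Single markers of the list differed from it in SIRMu-1: Thy1 had 4 counts over its 5 libraries (133 to 1078 CPM in primary cultures), Dcn stood at 0.165 to 20.3 CPM (110 to 1962 in primary cultures) and Twist1 at 47.5 to 72.2 CPM (15.2 to 32.1 in primary cultures). In rMC-1, Twist1 stood at 21.7 to 24.7 CPM, within the primary range. Thy1, Dcn and Prrx1 had 26, 92 and 10 counts over the rMC-1 libraries (Prrx1 54.5 to 142 CPM in primary cultures). The 8 markers of pericytes and smooth muscle, all with counts in each group, summed to 10101 to 14932 CPM in primary cultures, 6984 to 16693 in SIRMu-1 and 1441 to 3666 in rMC-1. The part of such cells in the levels below was not tested, and in these bulk libraries fewer cells of a type and less RNA per cell cannot be told apart.

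Fibronectin, periostin, SPARC and osteopontin RNA were abundant in primary cultures and much lower in rMC-1, whereas in SIRMu-1 osteopontin alone among them was lower at the threshold. Tenascin-C RNA, also abundant in primary cultures, was lower in rMC-1, a call lost in some refits, and did not pass in SIRMu-1. The tenascins N and R, SPARC-like 1 and both spondins were lower in SIRMu-1 than in primary cultures, and Tnn, Tnr and Spon1 were lower in SIRMu-1 than in rMC-1 too. In SIRMu-1 against primary cultures, edgeR called 6 of the 10 genes lower at an adjusted p under 0.05 (Tnn, Tnr, Spp1, Sparcl1, Spon1 and Spon2), and the other 4 (Fn1, Postn, Tnc and Sparc) did not pass; all 10 log2 changes were negative. Of all 11321 genes tested, 46.1% were called in that comparison, 24.4% lower and 21.7% higher. In rMC-1 against primary cultures 9 of 10 were called lower and only Tnn did not pass, where 70.8% of all genes were called, 38.9% lower and 31.9% higher. In SIRMu-1 against rMC-1, 4 were called higher in SIRMu-1 (Fn1, Postn, Spp1 and Sparc), 3 lower (Tnn, Tnr and Spon1) and 3 did not pass, where 32.7% of all genes were called higher, 30.5% lower and 63.2% in all. The median log2 change over the 10 genes was -3.20, -3.85 and 2.23 in these comparisons, beside -0.02, -0.15 and 0.03 over all genes tested. The comparisons share groups, so their results are not independent of each other. Together the 10 genes took 5.80% to 8.41% of the gene reads of a primary library, 3.28% to 6.14% in SIRMu-1 and 0.284% to 0.410% in rMC-1.

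**Figure D1:**
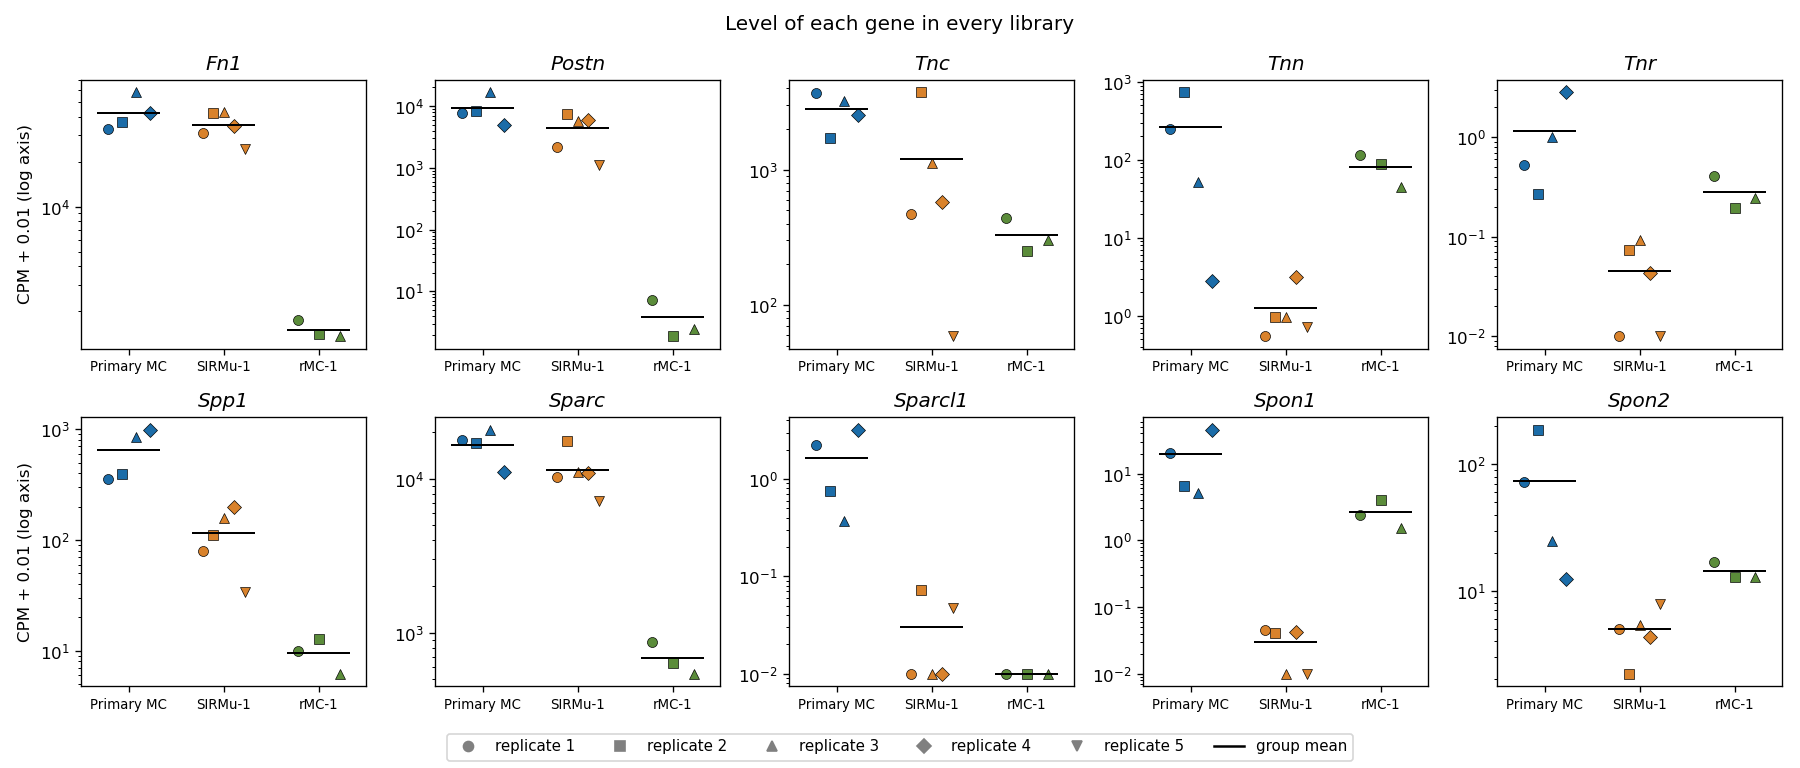
Level of each of the 10 genes in every library, as CPM + 0.01 on a log axis, in Primary MC (n = 4), SIRMu-1 (n = 5) and rMC-1 (n = 3); each symbol is 1 library, its shape the replicate number and the line the group mean. Fn1, Postn, Spp1 and Sparc are lowest in all 3 rMC-1 libraries, whereas Tnr and Spon1 are lowest in the SIRMu-1 libraries.

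Fibronectin is the adhesive glycoprotein through which integrins grip the matrix. Fn1 stood at 33124, 36884, 58413 and 42205 CPM in primary replicates 1 to 4, at 31279, 42236, 43064, 34768 and 24304 CPM in SIRMu-1 replicates 1 to 5 and at 1733, 1397 and 1352 CPM in rMC-1. Primary and SIRMu-1 libraries overlapped, and every rMC-1 library lay far below both. The means were 42657 ± 11146 CPM (SD, n = 4), 35130 ± 7836 (SD, n = 5) and 1494 ± 208 (SD, n = 3). Fn1 alone took 3.87% ± 0.856 of the gene reads in primary cultures (SD, n = 4), 3.25% ± 0.596 in SIRMu-1 (SD, n = 5) and 0.190% ± 0.0284 in rMC-1 (SD, n = 3). Its log2 change was -4.84 ± 0.32 (SE) in rMC-1 against primary cultures (edgeR adjusted p = 2.62e-07) and 4.56 ± 0.31 in SIRMu-1 against rMC-1 (edgeR adjusted p = 4.61e-07). Between SIRMu-1 and primary cultures it was -0.28 ± 0.23 (edgeR adjusted p = 0.336), a difference within the spread between libraries.

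Periostin, a ligand of integrins that binds fibronectin and tenascin-C and promotes collagen assembly, was low but detected in every rMC-1 library (257, 90 and 92 counts) and abundant in the other groups. Postn stood at 7812, 8361, 16748 and 4954 CPM in primary replicates 1 to 4, at 2173, 7388, 5639, 5995 and 1110 CPM in SIRMu-1 replicates 1 to 5 and at 7.32, 1.85 and 2.42 CPM in rMC-1. Primary and SIRMu-1 values overlapped, and the lowest SIRMu-1 library was still far above the highest of rMC-1. The log2 change was -11.26 ± 1.07 in rMC-1 against primary cultures (edgeR adjusted p = 3.09e-06) and 10.18 ± 1.03 in SIRMu-1 against rMC-1 (7.24e-06), and without rMC-1 replicate 1 these were -12.04 and 10.93, both still called. SIRMu-1 averaged 4461 ± 2682 CPM (SD, n = 5) against 9469 ± 5077 (SD, n = 4) in primary cultures, a log2 change of -1.09 ± 0.57 that did not pass (edgeR adjusted p = 0.141).

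SPARC, also called osteonectin, binds collagen and calcium and loosens the grip of cells on the matrix. Sparc stood at 17742, 16916, 20848 and 11076 CPM in primary replicates 1 to 4, at 10297, 17544, 11091, 10926 and 7171 CPM in SIRMu-1 replicates 1 to 5 and at 870.1, 632 and 542 CPM in rMC-1. The pattern was that of Fn1, with overlap of primary and SIRMu-1 libraries and rMC-1 below all of them. The log2 change was -4.61 ± 0.37 in rMC-1 against primary cultures (edgeR adjusted p = 9.13e-07) and 4.07 ± 0.35 in SIRMu-1 against rMC-1 (2.53e-06). In SIRMu-1 against primary cultures it was -0.55 ± 0.27 (edgeR adjusted p = 0.113), and without SIRMu-1 replicate 2, the highest of its group, it was -0.75 and called (0.0228).

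SPARC-like 1, or hevin, is made by astrocytes and supports synapse formation. Sparcl1 was rare everywhere: the primary libraries held 57, 20, 8 and 73 counts (2.25, 0.748, 0.358 and 3.22 CPM), the SIRMu-1 libraries 0, 2, 0, 0 and 1, and the rMC-1 libraries none. Every primary library thus exceeded every library of the lines. On summed counts scaled to depth the primary level was 76.6-fold that of SIRMu-1 (exact binomial 95% interval 25.7 to 375, counting error only) and at least 65.9-fold higher than in rMC-1, taking 3 counts over the group as the limit that a count of 0 allows. EdgeR called both differences (adjusted p = 0.000780 and 0.000411), and that between the lines did not pass (0.204). SIRMu-1 replicate 2 held 2 of the 3 counts of its line, and without it the fitted log2 change against primary cultures went from -6.03 to -6.95, still called. Sparcl1 was no longer tested when primary replicate 1, 2 or 4 was left out, since it then failed the filter. The 5 astrocyte markers summed to 6.59, 5.35, 7.42 and 44.7 CPM in primary replicates 1 to 4, 1.60 to 2.60 in SIRMu-1 (Pax2 and Slc1a2 at 0) and 3.11 to 4.36 in rMC-1 (Aldh1l1 and Pax2 at 0), so Sparcl1 and these markers both peaked in primary replicate 4. Their part in the Sparcl1 difference was not tested.

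Tenascin-C, which tempers the adhesion of cells to fibronectin and appears in injured tissue, varied widely between the SIRMu-1 libraries. Tnc stood at 3713, 1708, 3249 and 2538 CPM in primary replicates 1 to 4, at 469, 3744, 1119, 581 and 58.4 CPM in SIRMu-1 replicates 1 to 5 and at 437, 250.2 and 301 CPM in rMC-1. SIRMu-1 replicate 2 was above every primary library and replicate 5 was below every rMC-1 library, a 64.1-fold range within 1 line. The log2 change between SIRMu-1 and primary cultures was -1.23 ± 0.79 (edgeR adjusted p = 0.224), or -2.33 and called (0.0131) without SIRMu-1 replicate 2. That of SIRMu-1 against rMC-1 was 1.86 ± 0.93 (0.1002), a value that rested on single libraries. It was 2.06 and called (0.0182) without SIRMu-1 replicate 5, 2.07 and called with the replicate block (0.0445), 0.76 (0.356) without SIRMu-1 replicate 2, and 0.84 with limma-voom (0.460). In rMC-1 against primary cultures, whose libraries did not overlap, it was -3.09 ± 1.01 (edgeR adjusted p = 0.0166), which no longer passed when rMC-1 replicate 2 (0.0624) or 3 (0.0574) was left out.

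Tenascin-N, also known as tenascin-W and found mainly in bone and in the stroma of tumours, had the opposite order of the lines. Tnn stood at 249, 739, 51.3 and 2.78 CPM in primary replicates 1 to 4, at 0.533, 0.944, 0.949, 3.09 and 0.712 CPM in SIRMu-1 replicates 1 to 5 and at 114, 87.4 and 45.1 CPM in rMC-1. Primary replicate 4 lay within the SIRMu-1 range and the primary libraries spanned 266-fold, while each rMC-1 library was above each SIRMu-1 library. The log2 change was -7.69 ± 1.28 in SIRMu-1 against primary cultures (edgeR adjusted p = 0.000604), -6.33 when primary replicate 2 was left out and -8.37 when SIRMu-1 replicate 4 was. The call was lost with limma-voom (adjusted p = 0.0953) and when libraries whose file names share a code were summed (0.0642). In SIRMu-1 against rMC-1 it was -6.03 ± 1.23 (edgeR adjusted p = 0.00116), -6.70 without SIRMu-1 replicate 4, and again lost with limma-voom (0.0777) and with codes summed (0.0704). Between rMC-1 and primary cultures it was -1.66 ± 1.18 (edgeR adjusted p = 0.221), and it too moved with single libraries. It was -2.08 and called (0.0411) without primary replicate 4, -0.30 (0.810) without primary replicate 2, and 0.07 with limma-voom (0.964), where the sign turned.

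Tenascin-R is a tenascin of the central nervous system that binds contactin-1 and the proteoglycans of perineuronal nets. Tnr held 13, 7, 22 and 64 counts in primary replicates 1 to 4 (0.513, 0.262, 0.984 and 2.82 CPM), 0, 2, 2, 1 and 0 counts in SIRMu-1 replicates 1 to 5, and 14, 9 and 9 counts in rMC-1 (0.399, 0.185 and 0.237 CPM). SIRMu-1 lay below both other groups, which overlapped. On summed counts the primary level was 30.8-fold that of SIRMu-1 (exact 95% interval 12.8 to 96.9) and the rMC-1 level 7.43-fold that of SIRMu-1 (2.87 to 24.4). EdgeR called Tnr in SIRMu-1 against primary cultures (log2 change -4.85 ± 0.87, adjusted p = 0.000942, and -3.89 without primary replicate 4) and in SIRMu-1 against rMC-1 (-2.80 ± 0.94, 0.0207), which did not pass on leaving out rMC-1 replicate 1 (0.0610), with drugs as a covariate (0.0514) or with codes summed (0.0701). In rMC-1 against primary cultures (-2.05 ± 0.83, edgeR adjusted p = 0.0425) the call was lost in 12 of 21 alternatives, among them when any rMC-1 library was left out (0.0689, 0.150 and 0.133 for replicates 1 to 3), when primary replicate 4 was (-1.09, 0.168), when SIRMu-1 replicate 4 was (0.0546), with the replicate block (-1.16, 0.196), with drugs as a covariate (0.473) and with codes summed (0.0692). The 8 markers of photoreceptors and neurons summed to 482, 52.5, 56.9 and 228 CPM in primary replicates 1 to 4 (Crx, Nrl and Rcvrn at 0). Their sum was 55.4 to 303 in SIRMu-1 (Crx and Nrl at 0) and 1.77 to 5.09 in rMC-1, where all 8 had counts. The part of these markers in the Tnr levels was not tested.

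Osteopontin, a secreted phosphoprotein that binds integrins and CD44 and is made by activated macrophages and glia, was graded over the groups. Spp1 stood at 355, 397, 850 and 993 CPM in primary replicates 1 to 4, at 79.3, 110, 158, 197 and 34.0 CPM in SIRMu-1 replicates 1 to 5 and at 9.94, 12.7 and 6.19 CPM in rMC-1. No group overlapped another. The means were 649 ± 321 CPM (SD, n = 4), 116 ± 64.2 (SD, n = 5) and 9.62 ± 3.28 (SD, n = 3). Its log2 change was -2.49 ± 0.48 in SIRMu-1 against primary cultures (edgeR adjusted p = 0.00147), -6.07 ± 0.70 in rMC-1 against primary cultures (1.31e-05) and 3.59 ± 0.61 in SIRMu-1 against rMC-1 (0.000315). The 8 markers of microglia and macrophages had summed levels of 14.2, 4.04, 3.80 and 6.92 CPM in primary replicates 1 to 4, 0.899 to 5.66 in SIRMu-1 and 2.29 to 3.50 in rMC-1, and Aif1, C1qa and C1qb at 0 in both lines. The part of such cells in the Spp1 levels was not tested.

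The spondins share a secreted domain first described in F-spondin of the floor plate: spondin 1 (F-spondin) guides axons and binds the amyloid precursor protein, and spondin 2 (mindin) takes part in innate immune recognition. Spon1 stood at 20.4, 6.51, 5.05 and 45.8 CPM in primary replicates 1 to 4 and at 2.39, 4.02 and 1.50 CPM in rMC-1, and SIRMu-1 libraries held 1, 1, 0, 1 and 0 counts. The 3 groups did not overlap. From 1844 counts against 3, the primary level was 894-fold that of SIRMu-1 (exact 95% interval 305 to 4337), and from 336 counts against 3 the rMC-1 level was 130.0-fold (44.1 to 634). Primary replicate 4 held 1039 of the 1844 counts. EdgeR called Spon1 in SIRMu-1 against primary cultures (fitted log2 change -9.59, adjusted p = 2.05e-05), in SIRMu-1 against rMC-1 (-6.71, 7.91e-05) and in rMC-1 against primary cultures (log2 change -2.88 ± 0.73, 0.00391). The first was -8.73 without primary replicate 4, -12.19 with drugs as a covariate and -8.58 with limma-voom, and the second was -7.35 with the replicate block, all called. Without primary replicate 4 the last was -2.02, with the replicate block -1.89, both called, and with drugs as a covariate it was not called (-6.04, 0.138). The drug term is estimated within SIRMu-1 alone, so both Spon1 values with that covariate rest on very few reads. These were 1, 1 and 1 counts without the drugs and 0 and 0 with them.

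Spon2 stood at 72.0, 189, 24.7 and 12.5 CPM in primary replicates 1 to 4, at 4.94, 2.20, 5.37, 4.34 and 7.87 CPM in SIRMu-1 replicates 1 to 5 and at 16.9, 13.0 and 12.9 CPM in rMC-1. SIRMu-1 lay below both other groups, and primary replicate 4 was just below the rMC-1 libraries. The log2 change was -3.92 ± 0.68 in SIRMu-1 against primary cultures (edgeR adjusted p = 0.000754), -2.89 without primary replicate 2, and not called with the codes summed (-3.49, 0.0575). In rMC-1 against primary cultures it was -2.39 ± 0.77 (edgeR adjusted p = 0.0150), which failed to pass on leaving out primary replicate 2 (-1.36, 0.0533), or rMC-1 replicate 2 (0.0572) or 3 (0.0576), with limma-voom (0.0556), and with drugs as a covariate (-1.60, 0.268) or codes summed (0.129). SIRMu-1 against rMC-1 gave -1.53 ± 0.68 (edgeR adjusted p = 0.0670), which was called without primary replicate 2 (0.0197) or 4 (0.0252) or SIRMu-1 replicate 5 (0.0487). It was also called with DESeq2 (adjusted p = 0.0284), and in edgeR with scaling by library totals (0.0229) or the compared groups fitted alone (0.00317).

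**Figure D2:**
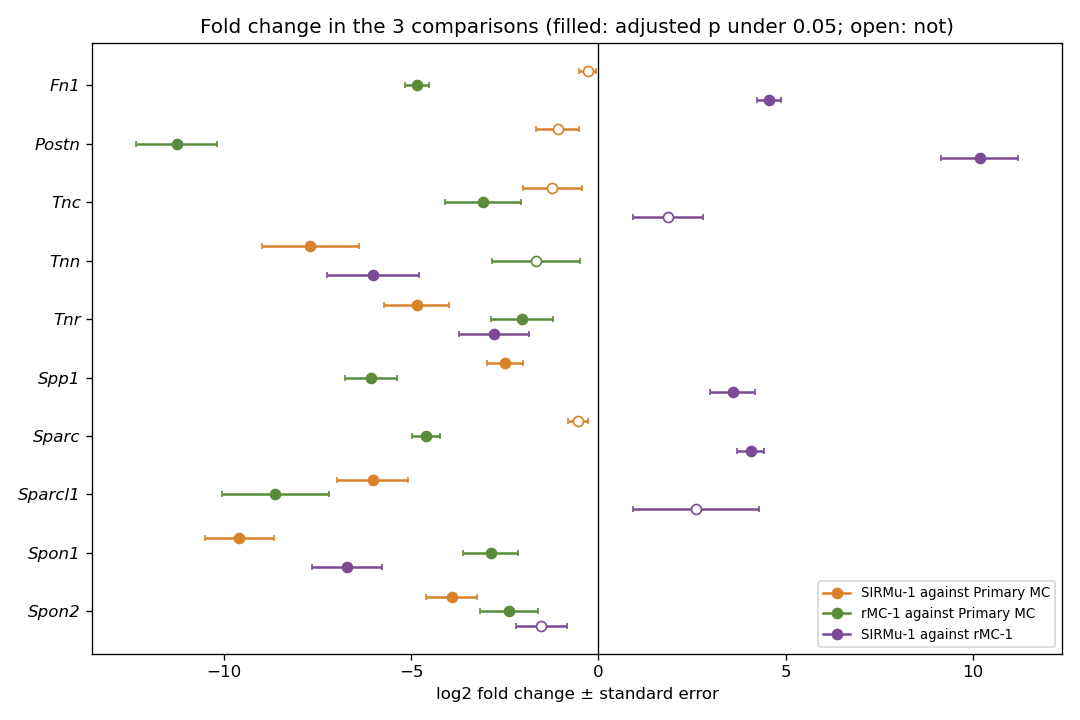
Log2 fold change (horizontal axis) ± standard error of each gene in SIRMu-1 against Primary MC, rMC-1 against Primary MC and SIRMu-1 against rMC-1, from edgeR; filled points passed an adjusted p under 0.05 and open points did not. Fn1, Postn, Spp1 and Sparc lie far to the right in SIRMu-1 against rMC-1, while Tnn, Tnr and Spon1 lie to the left, and Sparcl1 (both lines) and Spon1 (SIRMu-1) rest on 3 or fewer counts over a line.

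Within a group, several members shared the library in which they were highest or lowest. Among primary cultures, Tnn and Spon2 were both highest in replicate 2 and lowest in replicate 4, whereas Tnr, Sparcl1 and Spon1 were all highest in replicate 4. That library also had the highest astrocyte marker sum, 44.7 CPM, and the lowest fibroblast marker sum, 25071 CPM against 78771 to 117976 in the other 3. Postn and Sparc, at 4954 and 11076 CPM, were lowest there too, while Fn1, at 42205 CPM, was not. Spp1 was lower in replicates 1 and 2, which share passage 4 and a code in their file names, than in replicates 3 and 4 of passage 3.

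Within SIRMu-1, replicate 5, the latest passage, was lowest for Fn1, Postn, Tnc, Spp1 and Sparc together. Not all members followed: Spon2, at 7.87 CPM, was highest there, and Tnn, at 0.712 CPM, was above replicate 1 at 0.533. The pericyte and smooth muscle markers of replicate 5 summed to 6984 CPM against 13984 to 16693 in the other 4 libraries. Its fibroblast markers, a sum carried by Col1a1, came to 52121 CPM within a SIRMu-1 range of 35700 to 52920. Replicate 2, at passage 11 without the drugs, was highest for Postn, Tnc and Sparc. The part of these markers and of passage in the spread was not tested.

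**Figure D3:**
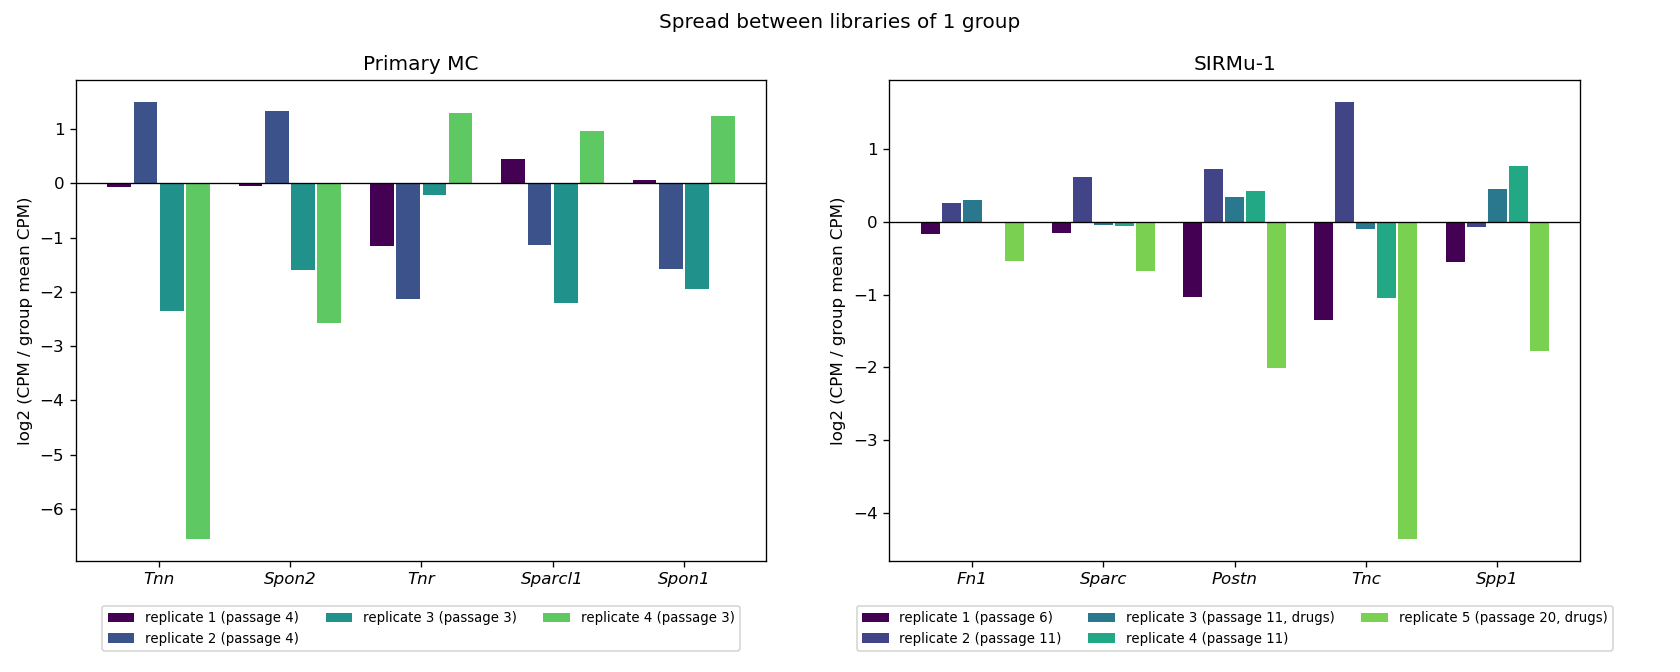
Level of each gene in each library relative to its group mean, as log2 of CPM over the mean (0 is the mean), for 5 genes in Primary MC (left, n = 4) and 5 in SIRMu-1 (right, n = 5); each bar is 1 library and the legend gives its passage and drugs. In primary replicate 4, Tnn and Spon2 lie below the mean and Tnr, Sparcl1 and Spon1 above it, and all 5 genes on the right are lowest in SIRMu-1 replicate 5. The panels show different genes, set by hand and not by a rule. Spon2, not shown on the right, was highest in SIRMu-1 replicate 5.

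The SIRMu-1 libraries with gentamicin and amphotericin B were added in the study to match the primary cultures, so the drugs were compared within that line, 2 libraries with against 3 without. EdgeR called none of the 10 genes, and none had an unadjusted p under 0.05. Of all 11321 genes it called 0%, with 433 at an unadjusted p under 0.05; DESeq2 called 4 genes, none of them a member, limma-voom none, and edgeR 2 without SIRMu-1 replicate 3. The log2 changes were -0.10 ± 0.32 for Fn1, -0.50 ± 0.35 for Sparc, -0.62 ± 0.81 for Postn and -1.44 ± 1.10 for Tnc (edgeR adjusted p = 0.977 for Tnc). The last ranged from -4.77 to 0.17 and that of Postn from -2.22 to 0.12 with 1 SIRMu-1 library left out. Replicate 5 is also the latest passage, so drugs and passage cannot be fully told apart.

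Receptors and partners of these proteins were compared from a list of 24 genes, of which 19 were analysed and 18 tested. In SIRMu-1 against primary cultures 1 was higher, 6 were lower and 11 did not pass, with a median log2 change of -0.46, where 21.7% of all genes tested were called higher and 24.4% lower (46.1% in all). In rMC-1 against primary cultures 3 were higher, 13 lower and 2 did not pass (median -1.71; 31.9% and 38.9% of all genes, 70.8% in all). In SIRMu-1 against rMC-1 10 were higher, 3 lower and 5 did not pass (median 0.80; 32.7% and 30.5% of all genes, 63.2% in all). The integrin gene Itga8, whose product binds fibronectin and osteopontin, stood at 222 ± 189 CPM in primary cultures (SD, n = 4), 696 ± 190 in SIRMu-1 (SD, n = 5) and 0.0754 ± 0.0122 in rMC-1 (SD, n = 3). Its log2 change was 1.65 ± 0.44 in SIRMu-1 (edgeR adjusted p = 0.00970; 2.43 without primary replicate 3, and not called with codes summed, 0.139) and -11.47 ± 0.87 in rMC-1 (6.17e-07; -10.69 without primary replicate 3). Cd44, a receptor of hyaluronan and osteopontin that is also on the list of Müller markers, fell by 1.56 ± 0.33 in SIRMu-1 (edgeR adjusted p = 0.00246), from 547 to 186 CPM. Itgb5, an integrin subunit for vitronectin, fell by 1.07 ± 0.21 (0.00183), from 516 to 246 CPM, and both calls were lost with codes summed (0.0870 and 0.0501). In rMC-1 the integrin gene Itga4 fell by 7.04 ± 0.68 (edgeR adjusted p = 3.33e-06), from 30.0 to 0.226 CPM, and App, the amyloid precursor gene, fell by 2.72 ± 0.24 (1.71e-06), from 1973 to 299.9 CPM.

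Of 25 other matricellular genes, 23 were analysed and 20 tested. In SIRMu-1 against primary cultures 5 were higher, 9 lower and 6 did not pass (median log2 change -0.26), beside 46.1% of all genes called. In rMC-1 against primary cultures 2 were higher, 16 lower and 2 did not pass (median -2.92), beside 70.8% called, 38.9% lower. In SIRMu-1 against rMC-1 12 were higher, 3 lower and 5 did not pass (median 2.54), beside 63.2% called, 32.7% higher. Smoc1, a calcium-binding relative of SPARC, rose by 2.55 ± 0.53 in SIRMu-1 (edgeR adjusted p = 0.00229), from 109 ± 77.5 CPM (SD, n = 4) to 637 ± 70.2 (SD, n = 5). The thrombospondin gene Thbs2 had a log2 change of -2.33 ± 0.83 there (edgeR adjusted p = 0.0372), which no longer passed when primary replicate 2 (-1.12, 0.236) or any of SIRMu-1 replicates 1 to 4 (0.0656 to 0.0803) was left out, and was -3.36 without SIRMu-1 replicate 5. Ecm1 fell by 1.73 ± 0.58 (0.0297), or -0.50 and not called (0.244) without primary replicate 4, and not called either without SIRMu-1 replicate 2 (0.0579) or 4 (0.0641) or with the replicate block (-1.11, 0.188). In rMC-1 the log2 change of Thbs2 was -8.23 ± 1.37 (edgeR adjusted p = 0.000215; -7.02 without primary replicate 2 and -8.82 without rMC-1 replicate 1) and that of Nov, a gene of the CCN family, -7.19 ± 1.21 (0.000231; -5.94 without primary replicate 3). Igfbp7, which binds insulin-like growth factors and collagen, had a log2 change of -5.24 ± 0.46 (edgeR adjusted p = 1.74e-06), from 711 to 18.9 CPM.

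For each member the 2 genes with the most similar pattern were taken by Pearson's r of log2 CPM over the 12 libraries. These r describe the libraries: the points share 3 groups, whose differences set most of r, and depth. Fn1 was nearest to Plxdc2 (r = 0.997) and Rasl10b (0.995), Postn to Sparc (0.995) and Plxdc2 (0.993), and Sparc to Postn and Golga5 (0.995). Spp1 was nearest to the NADPH oxidase gene Nox1 (0.994) and the secreted superoxide dismutase gene Sod3 (0.979). For the tenascins the nearest were Hist1h4b (0.936) and Galc (0.926) for Tnc, Dll1 and Prkd2 (both 0.937) for Tnn, and Ngfr (0.970) and Slc4a8 (0.968) for Tnr. Sparcl1 was nearest to Zfp385b and Ppp1r1a (both 0.991), Spon1 to RGD1310110 (0.985) and Sorl1 (0.982), and Spon2 to Ece1 (0.975) and Fzd5 (0.960).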

How the data were processed

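Polyadenylated RNA of 12 libraries was sequenced after stranded library preparation, per the labels. The authors deposited 1 table per library of raw read counts over 17315 genes. The tools named per the submitters' processing notes are edgeR 3.18.1, STAR 2.5.3a and cutadapt 1.8.1, with rn6 as the build. What each tool did, the annotation and the strand setting are not stated there, so counts of overlapping antisense genes are uncertain. A deposited table of log2 CPM was not used here.

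Reads in no gene were left out (no feature 24.2% to 30.3% of a library, several places 9.47% to 12.3%, ambiguous 0.152% to 0.193%, unmapped 1.84% to 2.54%). In R 4.3.3, edgeR 4.0.16 (expression filter, TMM, quasi-likelihood test) was fitted with 3 group means to all 12 libraries, leaving 11321 genes tested and 5994 not, with Benjamini-Hochberg adjustment over all of them; SE is the log2 change over the square root of F. The drug split used the same libraries. The scripts were tested on simulated data. Libraries of 1 group differed by more than counting noise (chi-square per gene 23.3 or more). Alternatives included limma 3.58.1 (voom), DESeq2 1.42.0, other scalings and filters, drugs as a covariate, libraries of 1 file-name code summed (its meaning is not given), each library left out, and, chosen after seeing the data, a fit of the compared groups alone. Only SIRMu-1 had libraries both with and without the drugs, so the drug covariate was estimated within that line.

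Members and lists were chosen with earlier results of these data known. Named were all 10 members, the 2 nearest genes of each, and from each list the 3 called genes with the largest change and a mean log2 CPM of at least 3 in each comparison with primary cultures. Levels were not compared between genes, as gene lengths were not used.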

Additional observations from a re-analysis of the deposited data

Results flagged for a closer look

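In a check of the highest and lowest library of each group of 4 or 5, done for the 10 genes in primary cultures and in SIRMu-1 (20 checks), 2 libraries stood apart from the rest of their group; chance flags about 1 in 20 groups. Tnc in SIRMu-1 replicate 2 was at 3744 CPM, and its gap to the next library was 0.712 of the group's range. Tnn in SIRMu-1 replicate 4 was at 3.09 CPM, with a gap of 0.838 of the range.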

How the results depend on the processing

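Over the 22 alternatives, the members were refitted 749 times across the 4 comparisons. Of these refits, 709 kept their side of the threshold, 29 were no longer called and 11 became called. None that was called turned direction. Changes that were not called did turn sign in some refits. These were that of Tnn in rMC-1 against primary cultures and those of several members in the drug comparison. The members called numbered 4 to 8 in SIRMu-1 against primary cultures, 6 to 9 in rMC-1 against primary cultures and 5 to 9 in SIRMu-1 against rMC-1. Fn1, Postn, Spp1 and Sparc in both rMC-1 comparisons were called under every alternative run. So were Spp1 and Spon1 in SIRMu-1 against primary cultures, and Spon1 in SIRMu-1 against rMC-1. Sparcl1 in each line against primary cultures, and Tnr in SIRMu-1 against them, were called wherever tested. The 10 receptor and matricellular genes named were refitted 660 times, with 39 calls lost and 5 gained. With the replicate block 6, 8 and 8 members were called in the same order of comparisons. Same-numbered libraries correlated at -0.063 to 0.098 in their deviations from group means (10 pairs) and others at -0.156 to 0.127 (37 pairs). Same-numbered libraries were thus no more alike than others. The labels do not say that a number pairs samples, and so low a correlation cannot decide it. All genes called in SIRMu-1 against primary cultures fell from 5220 to 3173 with codes summed. Summing left fewer samples from which to estimate the spread, and it pooled SIRMu-1 libraries of different passage and drugs. A call lost with codes summed was therefore also a call made with less power. Genes called for the drugs were 4 with DESeq2, 2 without SIRMu-1 replicate 3 and 0 otherwise. The causes of these changes were not tested. Scaling by library totals moved the median log2 change of all genes by 0.47 in rMC-1 against primary cultures and by -0.43 in SIRMu-1 against rMC-1, and no call of a member turned direction. Under the filter at 1 CPM in 3 libraries, Tnr and Sparcl1 were not tested. Nor were they tested in SIRMu-1 against primary cultures or SIRMu-1 against rMC-1 when the compared groups were fitted alone. Depth limits Sparcl1, Tnr and, in SIRMu-1, Spon1, with 5 or fewer counts there over all 5 libraries.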
